A study of Mus musculus with 70 samples.

Results

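Sorted basal progenitors (BP) of the mouse dorsal cerebral cortex were compared between days E14.5 and E13.5 of embryonic development. The members are the 3 BP libraries of E14.5 and the 3 BP libraries of E13.5, of 70 libraries in the series, and the 13240 of 23078 genes whose mean reached 1 TPM on at least one of the days. TPM, a length-corrected share of all transcripts scaled to the same total in every library, corrects for transcript length and library size, so levels of different genes can be compared, but only as shares of the RNA of a library. Both groups came from wild-type embryos of the C57Bl/6 strain that carried the Tbr2::GFP transgene, without treatment. In that line the gene for the transcription factor Tbr2 (Eomes) drives green fluorescent protein, and fluorescent cells of the dissected, papain-dissociated cortex were sorted. The same line also supplied newborn neurons at other stages, and the sources used here do not describe how BP were separated from them. Neighbouring groups enter some comparisons: BP at E12.5 (3 libraries) and E15.5 (4 libraries), and neural stem cells (NSC) of Hes5::GFP embryos at E14.5 (3 libraries) and E13.5 (4 libraries), also wild-type C57Bl/6, where the Notch target gene Hes5 drives the reporter. The labels do not say whether libraries of a group came from separate embryos or litters or from pools of them, so p-values rest on a spread between libraries that may be technical.

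Basal progenitors, also called intermediate progenitors, arise from radial glia, lose contact with the ventricle and divide in the subventricular zone, mostly to give pairs of neurons. Tbr2 marks them, and the reporter protein can outlast the mRNA in their daughter neurons. In the mouse cortex the day studied lies in the middle of neurogenesis, when output turns away from the earliest-born cells, Cajal-Retzius cells and subplate, and passes through the deep layers towards the upper layers.

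The labelled cell type was checked against markers. All 5 BP markers (Eomes, Neurog2, Insm1, Gadd45g, Btg2) were present in all 6 libraries and summed to 819 to 948 TPM at E14.5 and 987 to 1066 TPM at E13.5. Eomes stood at 299.5, 297 and 248 TPM in the E14.5 libraries, against 380.4, 397 and 400.2 TPM in the E13.5 libraries. The groups did not overlap, but the difference did not pass the test (log2 difference -0.48 ± 0.24 SE, adjusted p = 0.105). Neuron markers were also high in every library: Tubb3, Mapt, Neurod6, Stmn2 and Nefl summed to 4897 to 5131 TPM at E14.5 and 4288 to 5065 TPM at E13.5. In the NSC libraries the 5 BP markers summed to 991 to 1541 TPM at E14.5 and 1124 to 1682 TPM at E13.5. Their sum therefore does not set the BP libraries apart from NSC. Over both days, the NSC markers (Hes5, Sox9, Slc1a3, Fabp7, Vim) summed to 457 to 606 TPM in BP and 1894 to 3630 TPM in NSC. In bulk samples such as these, fewer cells of a type and less RNA per cell cannot be told apart.

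Sequencing depth is unknown, since TPM does not keep it. Genes listed above 0 numbered 16867 to 17326 per library at E14.5 and 16098 to 17042 at E13.5, and the lowest number belonged to E13.5 replicate 1. That library stood apart: its log2 values correlated with the other 5 libraries at 0.946 to 0.973 (Pearson's r across genes), against 0.970 to 0.995 among the other 5. A second feature of the day is base composition. Across 13080 genes with a known transcript GC content, the log2 difference between the days rose with GC content (Spearman's rho across genes 0.591, and 0.527 without E13.5 replicate 1). Against the mean of all BP libraries, the 3 E14.5 libraries had correlations with GC content of 0.351 to 0.532, the 3 E13.5 libraries -0.327 to 0.108, and the 17 libraries of other stages -0.309 to 0.284, so all 3 E14.5 libraries lay above all others. The median log2 difference was -0.34 in the genes with the lowest GC content and 0.28 in those with the highest, among 5 groups of equal size. Main counts are therefore also given without E13.5 replicate 1 and with a correction for GC content. The part of either in the differences was not tested beyond these counts. All libraries are labelled female, yet Y-linked transcripts summed to 65.5, 1.84 and 51.2 TPM in the E14.5 libraries and to 0.344, 95.6 and 64.7 TPM in the E13.5 libraries, so 2 libraries of each day went against that label. A fit with the Y-linked sum as a covariate called 5359 genes, against 5351 without it.

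**Figure D1:**
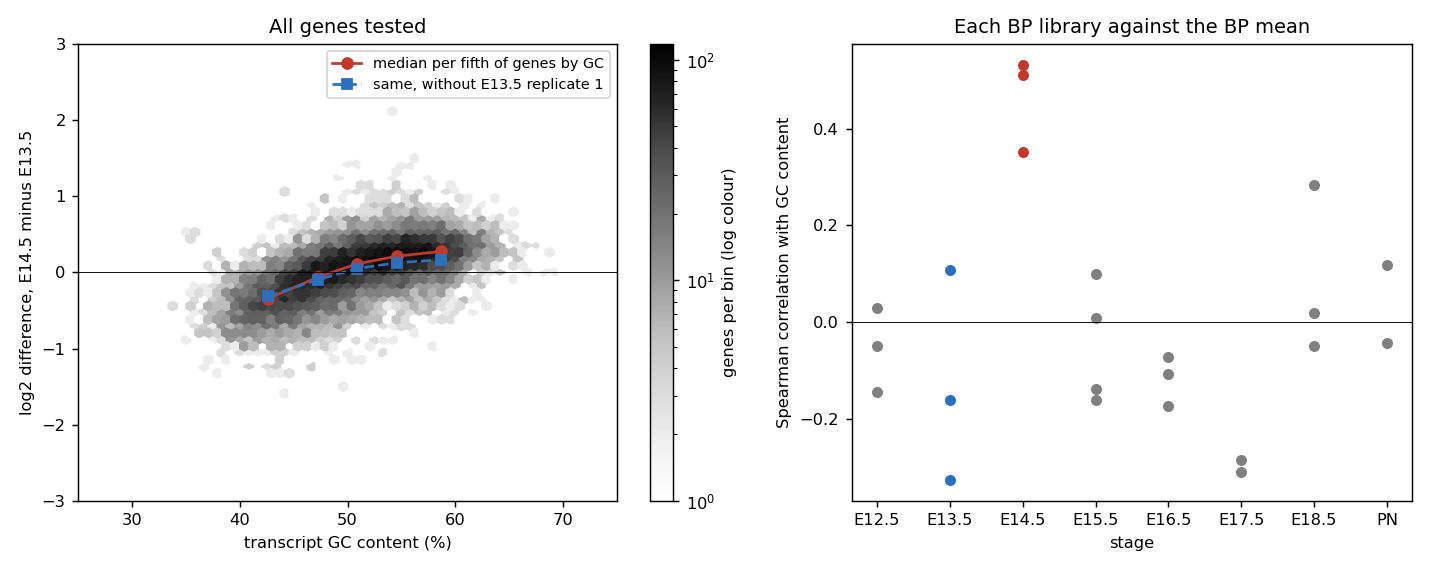
Base composition and the difference between the days. Left, log2 difference (E14.5 minus E13.5, on log2(TPM + 1)) against transcript GC content in percent for the genes tested, with the median in each of 5 groups of genes of rising GC content, which climbs from -0.34 to 0.28; right, Spearman correlation of each BP library's deviation from the BP mean with GC content, by stage, where the 3 E14.5 libraries (0.351 to 0.532) are the highest.

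Over the day, 5351 of 13240 genes differed, which is 40.4% (limma on log2(TPM + 1), Benjamini-Hochberg adjusted p below 0.05, called below). Of these, 3107 rose (23.5%) and 2244 fell (16.9%). Most differences were small: 301 genes (2.27%) were called with an absolute log2 difference of at least 1, 154 higher (1.16%) and 147 lower (1.11%). The median difference of all genes tested was 0.08. The spread was taken from all 70 libraries, and the count depended on that and on single libraries. With only the 6 libraries in the fit, 828 genes were called (295 higher, 533 lower), and without E13.5 replicate 1 there were 2673 (1144 higher, 1529 lower). Without E14.5 replicate 3 there were 3365. Of all genes tested, 8.63% rose and 11.54% fell without E13.5 replicate 1, 10.46% rose and 11.8% fell with the GC correction, and 2.23% rose and 4.03% fell with only the 6 libraries, and member counts under these settings are to be read against those shares. The GC correction left 2911, and it moved the share of calls that were higher to 47.0%, against 58.1% without it. All 2491 genes called both as reported and without E13.5 replicate 1 kept their sign, as did all 2117 shared with the GC-corrected fit. Of the 301 genes with large differences, 268 were called without E13.5 replicate 1, 289 with the GC correction, and 222 with only the 6 libraries.

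The genes with the largest rise were chosen by size among called genes with at least 10 TPM at E14.5 and no overlap between the groups, and the 15 that resulted held receptors, channel subunits, adaptors and enzymes. Mc4r, the melanocortin 4 receptor, a G protein-coupled receptor known from hypothalamic control of feeding, rose most. It stood at 17.95, 20.0 and 24.3 TPM in the E14.5 libraries, against 0.303, 1.79 and 0.694 TPM in the E13.5 libraries, a log2 difference of 3.56 ± 0.33 (SE, n = 3 each; adjusted p = 2.92e-11 by limma). Every E14.5 library was therefore at about 18 TPM or more, and every E13.5 library below 2. Grik3, a kainate-type glutamate receptor subunit, stood at 34.6, 32.3 and 36.7 TPM at E14.5, against 2.63, 16.8 and 5.49 TPM at E13.5 (2.24 ± 0.46, adjusted p = 0.000181). The E14.5 libraries lay close together, whereas the E13.5 libraries were spread widely and replicate 2 came nearest to E14.5. In all 15 genes the lowest E13.5 library was replicate 1, and in all 15 the ratio of the highest to the lowest library was larger at E13.5 than at E14.5.

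Abcc8 and Kcnj11 encode the sulfonylurea receptor and the pore of the ATP-sensitive potassium channel, and they are neighbours on chromosome 7 (GRCm38, Kcnj11 at 46093953 to 46100764 and Abcc8 at 46104523 to 46180033, both on the minus strand). Abcc8 stood at 37.9, 33.2 and 37.0 TPM in the E14.5 libraries, against 4.16, 13.8 and 9.41 TPM in the E13.5 libraries, and Kcnj11 at 42.0, 36.5 and 42.0 TPM, against 4.28, 18.1 and 14.7 TPM. Both rose by a similar amount, 1.998 ± 0.32 for Abcc8 (adjusted p = 5.26e-06) and 1.82 ± 0.29 for Kcnj11 (adjusted p = 6.88e-06). The 3 E14.5 libraries of each lay close together, and E13.5 replicate 2 was the highest of the E13.5 libraries for both.

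Among signalling and secreted proteins, Sla, the Src-like adaptor that dampens receptor signalling in lymphocytes, stood at 68.3, 69.9 and 88.0 TPM at E14.5, against 3.52, 13.6 and 6.26 TPM at E13.5 (3.28 ± 0.38, adjusted p = 1.13e-08). Igfbp3, which binds insulin-like growth factors, averaged 22.8 ± 3.15 TPM at E14.5 and 4.93 ± 2.85 TPM at E13.5 (SD, n = 3 each). Nxph3, a secreted neurexophilin that binds alpha-neurexins, averaged 40.1 ± 3.93 and 10.03 ± 3.24 TPM. Pdzrn3, a ubiquitin ligase with PDZ domains, rose by 2.10 and Mmp17, a membrane-anchored matrix metalloproteinase, by 1.78. In each of these 5 genes every E14.5 library lay above every E13.5 library, as the selection required.

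Cytoskeletal genes in the group were Nav2, a neuron navigator protein of microtubule ends (22.1, 19.4 and 21.4 TPM at E14.5, against 1.40, 7.49 and 4.18 TPM at E13.5), and Dync1i1, an intermediate chain of cytoplasmic dynein (34.0, 30.2 and 38.2 TPM, against 4.25, 11.9 and 7.63 TPM). Mpped1, which encodes a metallophosphoesterase domain, was the most abundant of the 15, at 674, 629.7 and 762 TPM at E14.5, against 98.7, 325 and 213 TPM at E13.5 (1.85 ± 0.25, adjusted p = 2.18e-07). Rlbp1, a retinaldehyde-binding protein best known from the retina, had the smallest standard error of the 15, 2.000 ± 0.16, with 66.1, 67.0 and 73.3 TPM at E14.5, against 10.4, 21.996 and 19.1 TPM at E13.5. The other 2 were Aldoc, the brain form of aldolase (1.81), and Ly6g6e of the Ly6 family (1.81). All 15 were still called without E13.5 replicate 1 and with the GC correction, with the same sign.

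**Figure D2:**
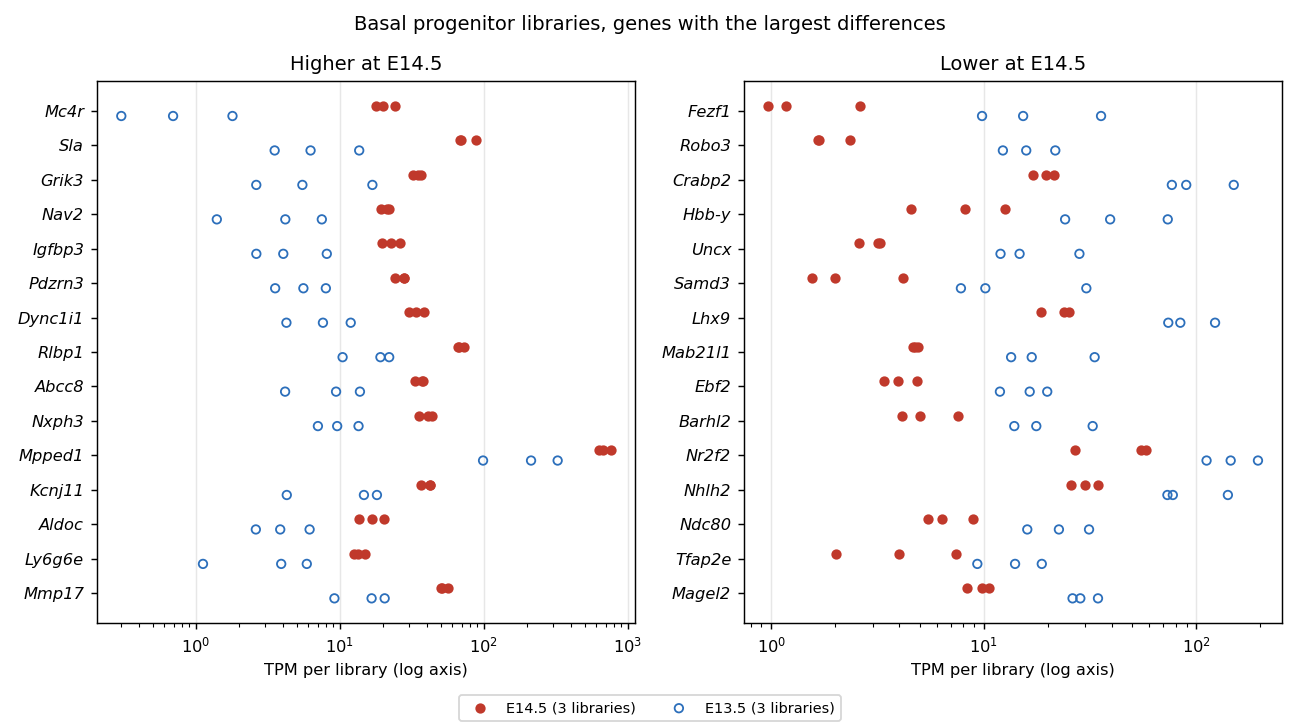
TPM in each of the 6 BP libraries (log axis) for the 15 genes with the largest rise and the 15 with the largest fall, E14.5 filled and E13.5 open. The groups do not overlap because the selection required it; E13.5 libraries are spread more widely than E14.5 libraries for most of the genes that rose, as for Grik3.

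The levels in neighbouring stages placed these genes in 3 kinds of course: some fell back by E15.5, some rose further and some did neither. Mc4r averaged 0.591 ± 0.245, 0.931 ± 0.773, 20.7 ± 3.21 and 2.33 ± 0.646 TPM at E12.5, E13.5, E14.5 and E15.5 (SD, n = 3, 3, 3 and 4), and was at or below 0.775 TPM in every BP library from E16.5 on. Its level was thus a peak of 1 day (E15.5 minus E14.5 -2.72, adjusted p = 1.9e-09 by limma). Sla followed a similar course, at 0.628 ± 0.210, 7.80 ± 5.22, 75.4 ± 10.9 and 25.04 ± 2.80 TPM, and Grik3 stood at 4.25 ± 0.789 TPM at E15.5, against 34.5 ± 2.20 TPM at E14.5; both differences between these days passed the test (adjusted p = 0.000462 and 1.34e-06). Nxph3, Igfbp3 and Dync1i1 were also lower at E15.5 than at E14.5 (log2 differences E15.5 minus E14.5 of -1.69, -0.88 and -0.94, adjusted p = 5.39e-07, 0.0066 and 0.00431). These steps share the E14.5 libraries with the main comparison, so a value peculiar to those libraries would appear in both. In the second kind, Rlbp1 averaged 1.11 ± 0.256, 17.2 ± 6.02, 68.8 ± 3.96 and 108 ± 3.67 TPM at the 4 stages and Pdzrn3 reached 104 ± 5.30 TPM at E15.5, and with Ly6g6e they rose between E14.5 and E15.5 (adjusted p = 0.00056, 4.67e-10 and 0.000962). For Nav2, Abcc8, Mpped1, Kcnj11, Aldoc and Mmp17 no further difference passed the test between E14.5 and E15.5.

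**Figure D3:**
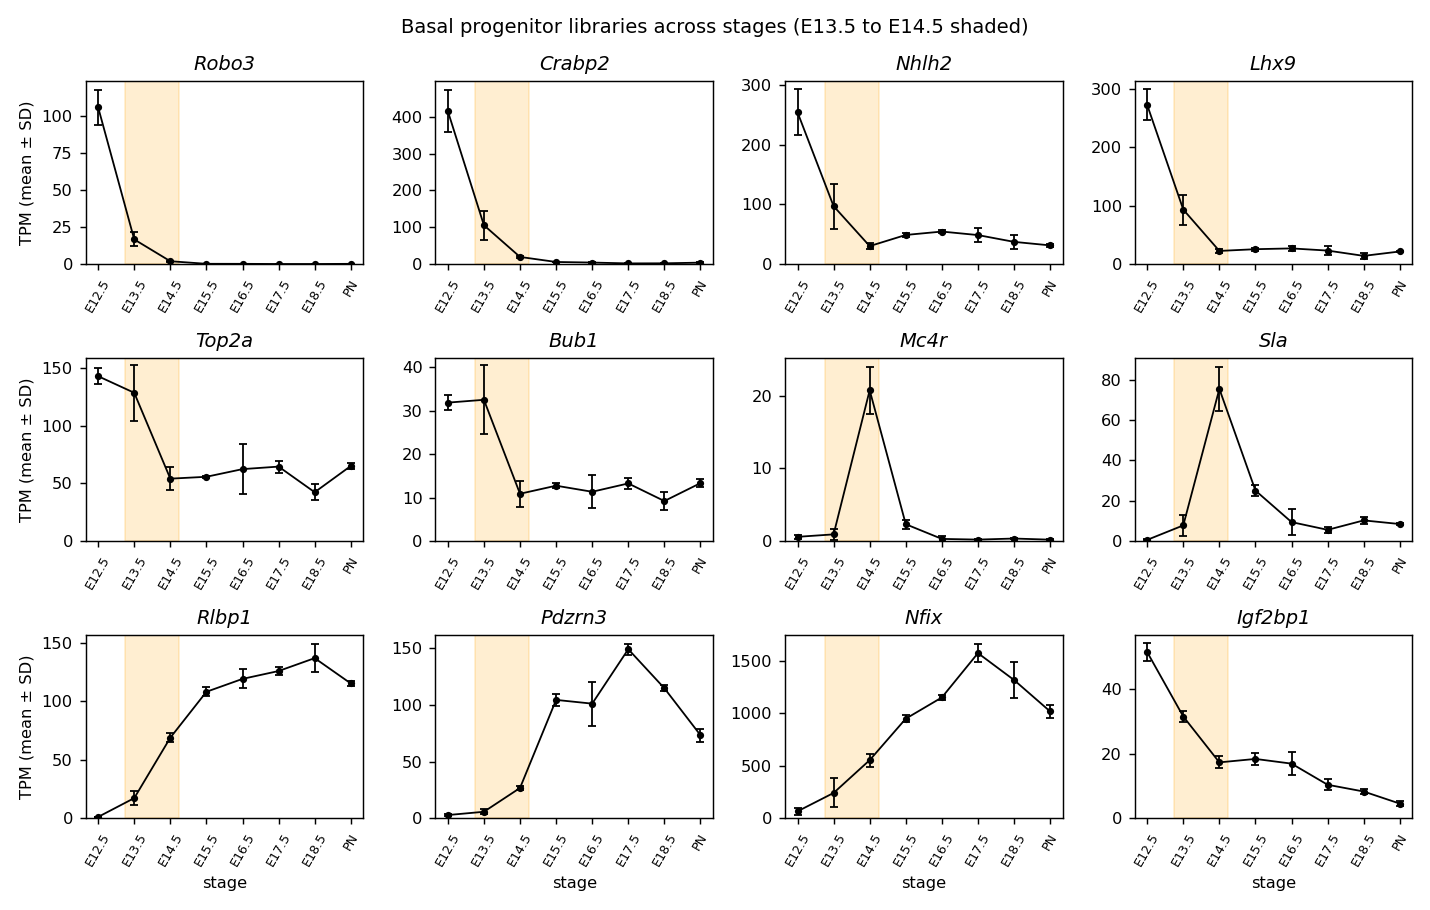
Mean TPM ± SD of BP libraries by stage from E12.5 to postnatal day 1 (PN; 2 to 4 libraries a stage) for 12 genes, with the E13.5 to E14.5 day shaded. Robo3, Crabp2, Nhlh2 and Lhx9 drop between E12.5 and E14.5, Top2a and Bub1 drop within the day, Mc4r and Sla peak at E14.5, and Rlbp1, Pdzrn3 and Nfix climb through it.

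Of the 15 genes with the largest fall, chosen in the same way, Fezf1, a zinc finger repressor of the early forebrain, fell most. It stood at 0.970, 1.17 and 2.61 TPM in the E14.5 libraries, against 35.6, 15.3 and 9.81 TPM in the E13.5 libraries (-2.90 ± 0.32, SE, n = 3 each; adjusted p = 3.82e-09). Its E14.5 values were all below 3 TPM and its E13.5 values differed among themselves, with replicate 1 highest. E13.5 replicate 1 was the highest E13.5 library in 12 of the 15 genes, all but Ebf2, Tfap2e and Magel2. The LIM homeodomain factor Lhx9 stood at 23.8, 25.1 and 18.52 TPM, against 122, 84.1 and 73.8 TPM (-1.98 ± 0.27, adjusted p = 3e-07). The homeodomain factors Uncx (-2.18 ± 0.22) and Barhl2 (-1.72 ± 0.28), the basic helix-loop-helix factor Nhlh2 (-1.60 ± 0.23), the Cajal-Retzius factor Ebf2 (-1.74 ± 0.25) and the AP-2 factor Tfap2e (-1.53 ± 0.43) also fell. Nr2f2, also called COUP-TFII, an orphan nuclear receptor of caudal and ventral forebrain, stood at 55.0, 26.9 and 58.0 TPM at E14.5, against 195, 145.03 and 112 TPM at E13.5 (-1.71 ± 0.34, adjusted p = 0.000145). Replicate 2 was the lowest E14.5 library for Nr2f2, and the highest E14.5 value remained under the lowest E13.5 value.

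Outside transcription factors, Robo3, a receptor of the Robo family known from axons that cross the midline, stood at 1.68, 2.36 and 1.66 TPM at E14.5, against 21.7, 12.3 and 15.8 TPM at E13.5 (-2.58 ± 0.24, adjusted p = 1.91e-11). Crabp2, which carries retinoic acid to its nuclear receptors, stood at 19.5, 21.3 and 17.1 TPM, against 149.9, 76.7 and 89.6 TPM (-2.33 ± 0.25, adjusted p = 1.7e-09). BP libraries averaged 415 ± 58.0, 105.4 ± 39.1, 19.3 ± 2.09 and 5.62 ± 0.156 TPM at E12.5, E13.5, E14.5 and E15.5. Robo3 averaged 106 ± 11.9, 16.6 ± 4.75, 1.90 ± 0.399 and 0.161 ± 0.110 TPM over the same stages. Magel2, an imprinted gene of the MAGE family, fell by 1.53 on the log2 scale, Mab21l1 by 1.84 and Samd3 by 2.10. Hbb-y, the embryonic beta-like globin of red blood cells, fell to 12.6, 4.54 and 8.12 TPM at E14.5, against 73.4, 39.3 and 24.1 TPM at E13.5 (-2.26 ± 0.81, adjusted p = 0.0234), and was the only one of the 30 genes to lose its call without E13.5 replicate 1 (adjusted p = 0.138). With only the 6 libraries in the fit Tfap2e was the only one to lose it.

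Cajal-Retzius cells are the earliest-born neurons of the cortex, and they line its surface and secrete Reelin. Of 14 measured genes from a list for these cells, 0 rose, 10 fell and 4 did not pass the test (median log2 difference -0.80, against 0.08 for all genes tested). Of all genes tested, 16.9% fell. Ebf3, of the same factor family as Ebf2, stood at 11.52, 8.90 and 9.41 TPM in the E14.5 libraries, against 37.2, 27.9 and 24.6 TPM in the E13.5 libraries (-1.48 ± 0.17, adjusted p = 1.3e-08). Nhlh2 stood at 34.5, 30.0 and 25.7 TPM, against 141, 77.5 and 73.1 TPM. The LIM homeodomain factors Lhx1 (-1.13 ± 0.26) and Lhx5 (-0.94 ± 0.21) and Trp73 (-0.62 ± 0.24), a p53 relative, fell by less. Reln, which encodes Reelin, did not pass the test: it stood at 95.9, 64.9 and 83.6 TPM at E14.5, against 53.1, 96.1 and 80.8 TPM at E13.5, and the groups overlapped (0.11 ± 0.29, adjusted p = 0.781). Tbr1, shared with deep layer neurons, differed by -0.21 ± 0.19 (adjusted p = 0.367). Without E13.5 replicate 1 Trp73, Calb2 and Zic1 lost their calls, which left 7 of 14 lower, with the GC correction 10 were lower, and with only the 6 libraries 5 were lower. In 10 of the 14 genes every E14.5 library lay below every E13.5 library, which held for 18.2% of all genes tested. At the step before, E13.5 against E12.5, 12 of 14 list members fell (13% of all genes tested fell). The 4 Cajal-Retzius markers Reln, Trp73, Lhx5 and Calb2 summed to 121 to 153 TPM at E14.5 and 173 to 188 TPM at E13.5, with none at 0, and the part of such neurons in the sorted cells was not tested.

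Cortical patterning factors divided. Of 20, 3 rose, 6 fell and 11 did not pass the test, with background shares of 23.5% and 16.9%. The members that fell were Lhx9, Nr2f2, Etv1 (-1.45 ± 0.32), Emx2 (-1.01 ± 0.16), Nr2f1 (-0.77 ± 0.16) and Lmo4 (-0.44 ± 0.15). Emx2, a homeodomain factor that grades from caudal to rostral, stood at 26.2, 23.3 and 21.8 TPM in the E14.5 libraries, against 60.2, 45.2 and 42.1 TPM in the E13.5 libraries, and Nr2f1 (COUP-TFI) at 339, 275 and 284 TPM, against 500.1, 555 and 475 TPM. The E14.5 libraries of both were all below all E13.5 libraries. The members that rose were the ETS factor Etv5 (1.45 ± 0.21), Lmo3 (0.86 ± 0.19) and Tenm3 (0.91 ± 0.37), and Tenm3 and Lmo4 lost their calls without E13.5 replicate 1. Pax6 did not pass the test (0.16 ± 0.19). With the GC correction 10 were lower and 2 higher.

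Genes that mark early developmental time, named heterochronic after the Lin28 pathway of worms, formed a list of 12 measured members, of which 0 rose, 7 fell and 5 did not pass the test (median -0.57). Nr2f1, described above, was one of them. Lin28b, which blocks maturation of let-7 microRNAs, stood at 1.98, 1.84 and 1.63 TPM at E14.5, against 5.72, 4.94 and 4.21 TPM at E13.5 (-1.08 ± 0.21, adjusted p = 0.000117). The 3 Igf2bp genes encode mRNA-binding proteins. Igf2bp1 stood at 17.8, 18.8 and 15.2 TPM, against 31.3, 33.3 and 29.8 TPM (-0.83 ± 0.13, adjusted p = 6.27e-06), and Igf2bp2 (-0.57 ± 0.18) and Igf2bp3 (-0.57 ± 0.13) fell with it. For all 3 the groups did not overlap. Hmga2 (-0.72 ± 0.28) and Dlk1 (-1.15 ± 0.42) fell as well but lost their calls without E13.5 replicate 1, and Arid3a (-0.38 ± 0.16, not called as reported) gained one, so that 6 were lower. With the GC correction 9 were lower, and with only the 6 libraries 5. Among 15 genes of late developmental time, 3 rose, 2 fell and 10 did not pass the test, against 23.5% and 16.9% of all genes tested. With the GC correction 2 were higher and 3 lower, and with only the 6 libraries 0 and 1. Without E13.5 replicate 1, 14 were measured, with 2 higher and 2 lower, and 0 and 2 with the GC correction as well. Nfix, a nuclear factor I gene, stood at 589.7, 484 and 590.0 TPM at E14.5, against 98.0, 375 and 251 TPM at E13.5 (1.39 ± 0.29, adjusted p = 0.00026), whereas Nfia (-0.41 ± 0.18) and Nfib (-0.13 ± 0.22) did not pass the test.

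Mitotic genes fell almost as a block. Of 25, 0 rose, 24 fell and 1 did not pass the test, against 16.9% of all genes tested that fell, and the median difference was -0.90. Bub1, a kinase of the spindle checkpoint, stood at 11.3, 13.6 and 7.75 TPM in the E14.5 libraries, against 39.9, 33.4 and 24.2 TPM in the E13.5 libraries (-1.50 ± 0.22, adjusted p = 1.46e-06). Top2a, the topoisomerase that untangles chromosomes, stood at 56.5, 62.8 and 43.1 TPM, against 133, 150.3 and 103 TPM (-1.23 ± 0.20, adjusted p = 5.91e-06). In both genes the lowest E13.5 library was replicate 3, and it remained above every E14.5 library. The kinesin motors Kif11 (-1.32 ± 0.20) and Kif23 (-1.24 ± 0.18), and the spindle protein Nusap1 (-1.27 ± 0.21) fell by similar amounts, as did Ndc80 of the kinetochore, which is not in the list (-1.60 ± 0.23). Mki67, the proliferation antigen Ki-67, stood at 19.9, 21.0 and 15.6 TPM, against 45.1, 59.0 and 21.0 TPM (-0.998 ± 0.26), and its E13.5 replicate 3 lay within the range of E14.5. In 22 of the 25 genes the groups did not overlap, each with E14.5 below (18.2% of all genes tested). Aurkb was the only member not called (-0.43 ± 0.19, adjusted p = 0.069). Summed over the 25 genes, the level was 738, 827 and 629.6 TPM at E14.5, against 1592, 1370.2 and 1112 TPM at E13.5. Without E13.5 replicate 1 18 of 25 were lower, with the GC correction 24, and with only the 6 libraries 14, with the median at -0.75, -0.75 and -0.90. These genes are poorer in GC than most, with a median transcript GC content of 47.4%, against 49.1% to 52.8% in the middle of the 5 groups of genes by GC content. The level did not differ in this way in the neighbouring steps: from E12.5 to E13.5 none of the 25 was called in either direction (19.8% of all genes tested were), and from E14.5 to E15.5 1 rose and 6 fell (26% and 12.7% of all genes tested). Top2a averaged 143 ± 7.15, 129 ± 24.2, 54.1 ± 10.02 and 55.7 ± 0.737 TPM at E12.5, E13.5, E14.5 and E15.5.

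The promoters of mitotic genes carry 2 known elements, the CHR, with the letters TTTGAA, and the CCAAT box. The shares below describe the promoters of the list and would be the same whatever these libraries showed. Any part of these elements in the fall was not tested. Windows of 250 bases before to 50 bases after the start (RefSeq, GRCm38.p6) were found for 22 of the 25 genes, with 23 windows in all. TTTGAA, searched on both strands, lay in 18 of the 23 windows (78.3%), against 17.9% of 32851 promoter windows of all genes. CCAAT, searched on both strands, lay in 21 of 23 (91.3%), against 37.4% of all windows, and both together in 78.3%, against 7.0%. In the DNA replication list the shares were 13.6% and 68.2% of 22 windows. No match to either motif overlapped the other in the windows printed. The windows of the 5 mitotic genes with the largest fall follow, 5′ to 3′ on the strand of the gene, with both elements, on either strand, in capitals.
Bub1 (chr2:127831810-127832109, minus strand): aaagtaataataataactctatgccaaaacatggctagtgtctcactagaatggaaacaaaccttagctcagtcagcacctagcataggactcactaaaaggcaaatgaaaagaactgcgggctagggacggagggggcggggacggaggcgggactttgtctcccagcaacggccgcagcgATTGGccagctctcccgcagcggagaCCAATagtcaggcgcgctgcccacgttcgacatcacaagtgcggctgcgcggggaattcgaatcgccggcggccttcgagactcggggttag
Kif11 (chr19:37376132-37376431, plus strand): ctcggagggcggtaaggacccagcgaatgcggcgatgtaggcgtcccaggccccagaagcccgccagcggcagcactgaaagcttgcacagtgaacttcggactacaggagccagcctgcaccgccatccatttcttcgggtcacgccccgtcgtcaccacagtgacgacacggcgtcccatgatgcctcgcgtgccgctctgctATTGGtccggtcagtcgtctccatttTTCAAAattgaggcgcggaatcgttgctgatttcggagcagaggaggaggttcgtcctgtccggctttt
Nusap1 (chr2:119618048-119618347, plus strand): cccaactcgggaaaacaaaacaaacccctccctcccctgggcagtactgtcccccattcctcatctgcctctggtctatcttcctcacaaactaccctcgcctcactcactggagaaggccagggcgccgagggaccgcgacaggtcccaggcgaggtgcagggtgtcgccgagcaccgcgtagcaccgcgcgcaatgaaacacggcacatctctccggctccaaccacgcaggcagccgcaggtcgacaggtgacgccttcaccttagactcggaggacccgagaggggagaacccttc
Kif23 (chr9:61946750-61947049, minus strand): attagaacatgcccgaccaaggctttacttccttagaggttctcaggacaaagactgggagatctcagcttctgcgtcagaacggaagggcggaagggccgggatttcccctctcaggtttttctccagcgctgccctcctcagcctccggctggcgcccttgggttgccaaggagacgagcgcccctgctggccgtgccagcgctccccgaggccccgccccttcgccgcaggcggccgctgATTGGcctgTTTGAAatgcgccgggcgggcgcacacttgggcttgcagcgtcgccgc
Top2a (chr11:99024140-99024439, minus strand): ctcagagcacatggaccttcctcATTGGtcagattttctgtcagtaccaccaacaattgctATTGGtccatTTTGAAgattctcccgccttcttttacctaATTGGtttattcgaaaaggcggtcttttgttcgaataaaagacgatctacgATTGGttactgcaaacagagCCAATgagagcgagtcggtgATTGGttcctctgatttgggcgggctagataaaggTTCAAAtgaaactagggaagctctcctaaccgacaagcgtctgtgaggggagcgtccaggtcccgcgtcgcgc
Top2a holds 2 TTTGAA and 6 CCAAT matches, Kif11 and Kif23 1 of each, Bub1 2 CCAAT matches and no TTTGAA, and Nusap1 neither. Only these exact letters were searched, so other forms of the CHR would be missed. A match is a description of these letters and does not show that a factor binds there.

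DNA replication genes moved less. Of 24, 0 rose, 6 fell (25%) and 18 did not pass the test, and the median was -0.19. Of all genes tested, 23.5% rose and 16.9% fell. Among the 6 were Ccne2 (-0.93 ± 0.19), Pola1 (-0.66 ± 0.17), Rrm2 (-0.54 ± 0.17), Gins1 (-0.40 ± 0.12) and Prim1 (-0.32 ± 0.13). Rrm2, a subunit of ribonucleotide reductase, stood at 138, 151 and 122 TPM at E14.5, against 227, 201 and 172 TPM at E13.5. Mcm7 of the replicative helicase stood at 203, 206 and 201 TPM, against 156, 192 and 184 TPM (0.20 ± 0.09, adjusted p = 0.0667), and Pcna, the sliding clamp, differed by -0.19 ± 0.13 (adjusted p = 0.242). The count was 2 lower without E13.5 replicate 1, 1 with the GC correction and 0 with only the 6 libraries (where 828 genes were called in all). Among 18 regulators of the G1 phase, 3 rose (16.7%), 5 fell (27.8%) and 10 did not pass the test. Without E13.5 replicate 1, 1 was higher and 4 lower, against 8.63% and 11.54% of all genes tested. The kinase inhibitor Cdkn1a (p21) stood at 13.2, 12.2 and 17.0 TPM at E14.5, against 40.6, 26.8 and 28.8 TPM at E13.5 (-1.12 ± 0.21, adjusted p = 6.47e-05), and the retinoblastoma gene Rb1 fell by 0.78 on the log2 scale, while cyclin D3 (Ccnd3) rose by 0.57.

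Of 19 genes of basal progenitor identity, 2 rose, 4 fell and 13 did not pass the test, against 23.5% of all genes tested that rose and 16.9% that fell. None was higher without E13.5 replicate 1 (3 lower) or with only the 6 libraries (4 lower). With the GC correction 2 were higher and 6 lower, against 10.46% and 11.8% of all genes tested. The median was -0.13 as reported and -0.32 with the GC correction. Those that fell were Neurod1 and Neurod4, neuronal basic helix-loop-helix factors, Elavl2, an mRNA-binding protein, and Nhlh1. Neurod1, which follows Eomes as progenitors turn into neurons, stood at 75.5, 79.7 and 68.7 TPM in the E14.5 libraries, against 253, 156 and 121 TPM in the E13.5 libraries (-1.17 ± 0.22, adjusted p = 4.68e-05). The level was back up a day later (E15.5 minus E14.5 1.42, adjusted p = 2.48e-07), with 172 ± 22.8, 177 ± 68.1, 74.6 ± 5.54 and 201 ± 5.08 TPM at E12.5, E13.5, E14.5 and E15.5. Insm1 (0.36 ± 0.13) and Penk (0.91 ± 0.23) rose but lost their calls without E13.5 replicate 1, as did Neurod4. Neurog2, the proneural factor upstream, differed by -0.20 ± 0.21 (adjusted p = 0.442). In the wider list of 18 basic helix-loop-helix and Id genes, 2 rose, 6 fell and 10 did not pass the test, and with the GC correction 1 was higher and 4 lower. Id2, an inhibitor of such factors, stood at 470.1, 491 and 502 TPM at E14.5, against 239.8, 300.04 and 336 TPM at E13.5 (0.75 ± 0.13, adjusted p = 2.52e-05).

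Of 19 genes of neural stem cells and radial glia, 5 rose, 4 fell and 10 did not pass the test (all genes tested, 23.5% and 16.9%). Without E13.5 replicate 1, 3 were higher and 1 lower, and with only the 6 libraries 3 and 2. Ptn, the growth factor pleiotrophin, stood at 113, 109 and 96.3 TPM at E14.5, against 25.7, 39.4 and 35.9 TPM at E13.5 (1.65 ± 0.14, adjusted p = 5.1e-13), and Slc1a3, a glutamate transporter of radial glia, at 11.3, 8.78 and 10.6 TPM, against 2.12, 3.47 and 4.30 TPM (1.41 ± 0.20, adjusted p = 6.95e-07). For both, every E14.5 library lay above every E13.5 library, and the differences without E13.5 replicate 1 were 1.47 and 1.19. Emx2, Id4, Sox2 and Vim fell, and Pax6, Sox9 and Nes did not pass the test. The 5 NSC markers summed to 457 to 514 TPM at E14.5 and 495 to 606 TPM at E13.5. Their summed level overlapped between the days, with no marker at 0 in any library, and the part of NSC in the sorted cells was not tested. Of 14 genes of the FGF pathway and its feedback targets, 4 rose, 1 fell and 9 did not pass the test. Dusp6, a phosphatase induced by ERK, stood at 11.3, 12.46 and 14.0 TPM, against 4.19, 6.64 and 3.94 TPM (1.22 ± 0.20, adjusted p = 8.26e-06), Etv5 at 4.89, 3.12 and 6.44 TPM, against 0.561, 1.12 and 1.67 TPM, and the receptor gene Fgfr1 rose by 0.69. Fgfr2 was the fourth (0.54 ± 0.16). All 4 calls held without E13.5 replicate 1 and with the GC correction, and those of Dusp6 and Etv5 also with only the 6 libraries in the fit. The ligand gene Fgf9 fell (-0.71 ± 0.19).

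Of 19 upper layer genes, 5 rose, 2 fell and 12 did not pass the test. The 5 that rose are 26.3% of the list, a share near the 23.5% of all genes tested. With the GC correction 4 were higher and 3 lower, and with only the 6 libraries 2 and 2. Cux2, a homeodomain factor of upper layers, stood at 66.9, 63.2 and 60.7 TPM in the E14.5 libraries, against 20.5, 42.8 and 38.0 TPM in the E13.5 libraries (0.96 ± 0.20, adjusted p = 0.000284), and Mdga1 (0.90 ± 0.19), Inhba (0.79 ± 0.23) and Pou3f1 (0.63 ± 0.18) were also among the 5. For Cux2 and Mdga1 replicate 1 was the lowest E13.5 library by a wide margin, and without it the differences were 0.64 and 0.57, still called. With only the 6 libraries in the fit neither was called. Of 17 deep layer and subplate genes, 7 rose, 3 fell and 7 did not pass the test, and with the GC correction 5 were higher and 3 lower, with only the 6 libraries 4 and 2. Ldb2 (37.9, 41.4 and 37.1 TPM at E14.5, against 13.9, 20.6 and 11.7 TPM at E13.5), Hs3st4, Lmo3, Lmo7 and Zfp703 rose and kept their calls without E13.5 replicate 1, whereas Sox5 and Crym did not. Zfpm2, a co-factor of corticothalamic neurons, fell (-0.76 ± 0.19), as did Foxp2 (-0.68 ± 0.26) and Nxph4 (-0.65 ± 0.18). Fezf2 (0.43 ± 0.20), Bcl11b (-0.15 ± 0.27) and Tbr1, which specify the main deep layer types, did not pass the test.

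Of 20 general neuron genes, 2 rose, 5 fell and 13 did not pass the test, against 23.5% of all genes tested that rose and 16.9% that fell. No member was higher without E13.5 replicate 1 (2 lower) or with only the 6 libraries (4 lower). Map2, a dendritic microtubule protein, stood at 486, 526 and 461 TPM at E14.5, against 659.6, 871 and 711 TPM at E13.5 (-0.60 ± 0.19, adjusted p = 0.0123), and Cntn2, an axonal adhesion molecule, at 612, 519 and 628 TPM, against 124, 335 and 345 TPM (1.26 ± 0.31, adjusted p = 0.00136). Tubb3 did not pass the test (0.11 ± 0.14, adjusted p = 0.542). The call for Cntn2 was lost without E13.5 replicate 1 (adjusted p = 0.0719). Of 28 genes of synapses and excitability, 5 rose, 11 fell and 12 did not pass the test, against the same shares of all genes. With the GC correction 5 were higher and 6 lower, and without E13.5 replicate 1, 0 and 8. Slc17a6, the vesicular glutamate transporter VGLUT2, stood at 46.2, 49.3 and 41.0 TPM, against 127, 92.7 and 76.2 TPM (-1.07 ± 0.20, adjusted p = 5.88e-05), and Gabra2, a GABA receptor subunit, at 5.54, 7.34 and 6.65 TPM, against 13.7, 22.9 and 10.7 TPM (-1.10 ± 0.33, adjusted p = 0.00696). None of the 5 that rose, Vamp2, Stx1a, Grin1, Camk2b and Gria1, was called without E13.5 replicate 1. Of 24 genes of migration and adhesion, 5 rose, 5 fell and 14 did not pass the test, against 23.5% and 16.9% of all genes tested. Without E13.5 replicate 1, 4 were higher and 4 lower, and with only the 6 libraries 2 and 2. Among cadherins, which sort and bind cells, Cdh4 stood at 78.5, 67.1 and 73.2 TPM, against 19.4, 36.4 and 31.0 TPM (1.35 ± 0.18, adjusted p = 2.55e-07). Cdh13 (1.17 ± 0.29) and Pcdh8 (1.02 ± 0.19) rose with it.

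In the signalling lists the counts are to be read against the 23.5% of all genes tested that rose and the 16.9% that fell. Of 21 Notch pathway genes, 3 rose, 4 fell and 14 did not pass the test: the ligands Dll1 (-0.50 ± 0.14) and Jag1 (-0.47 ± 0.16), the target Hey1 (-0.54 ± 0.14) and Mib1 (-0.75 ± 0.14), a ligase needed to send the signal, fell, and the feedback inhibitor Nrarp (0.88 ± 0.18), Hes5 (0.62 ± 0.21) and Rfng (0.36 ± 0.10) rose. Without E13.5 replicate 1 Nrarp was the only one still higher, and with the GC correction 1 was higher and 8 lower. Of 16 Wnt pathway genes, 2 rose, 0 fell and 14 did not pass the test, and neither call held without E13.5 replicate 1. Of 16 genes of the BMP pathway, 4 rose, 3 fell and 9 did not pass the test, and Fst, the secreted antagonist follistatin, was among those that fell (-0.81 ± 0.19). The numbers higher and lower were 2 and 1 without E13.5 replicate 1, and 1 and 4 with the GC correction. Of 34 axon guidance genes, 5 rose, 6 fell and 23 did not pass the test (median 0.05). The median was -0.20 without E13.5 replicate 1, with 0 higher and 5 lower. Robo3, described above, fell by more (-2.58) than the guidance genes Efna5 and Sema6a. Efna5, a membrane-bound ephrin, stood at 3.11, 4.04 and 1.68 TPM at E14.5, against 12.8, 7.39 and 7.86 TPM at E13.5 (-1.40 ± 0.25, adjusted p = 2.37e-05). Sema6a, a membrane-bound semaphorin, fell by 0.92 on the log2 scale. Of 15 imprinted genes, 0 rose, 4 fell and 11 did not pass the test: Dlk1, Peg10 (-0.83 ± 0.24), Plagl1 (-0.69 ± 0.23) and Peg3 (-0.58 ± 0.19).

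**Figure D4:**
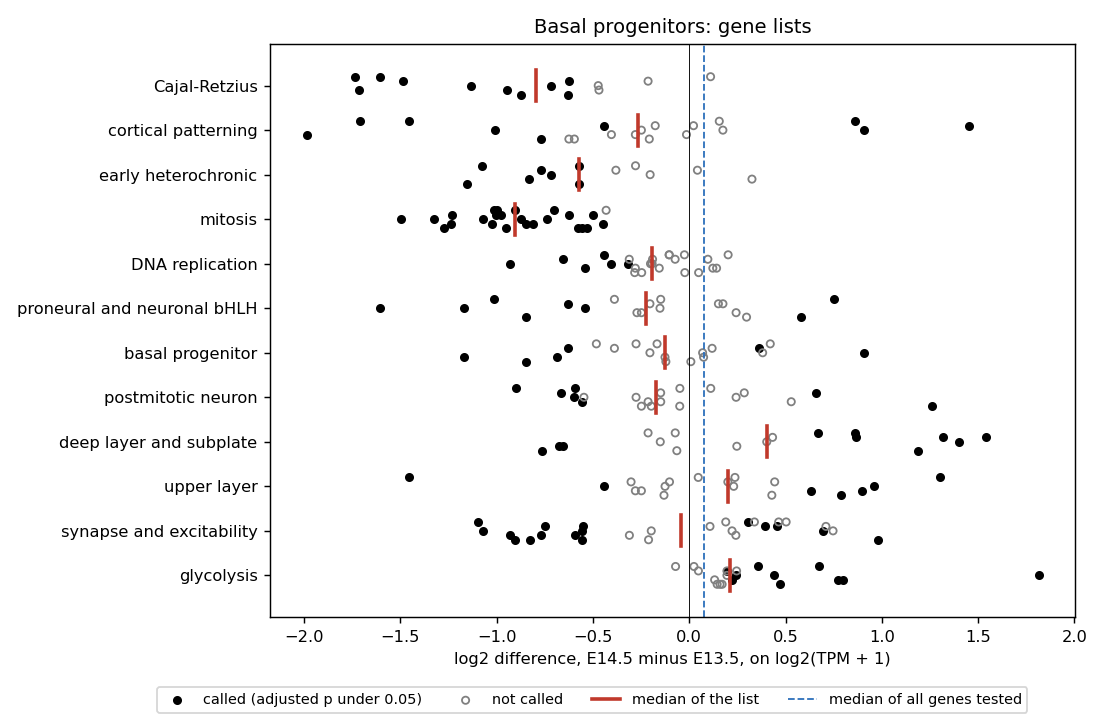
Log2 difference (E14.5 minus E13.5, on log2(TPM + 1)) of each tested member of 12 gene lists, filled where called, with the list's median and the median of all genes tested (0.08). The mitosis list lies wholly below 0 with 24 of 25 called, the Cajal-Retzius list has 10 of 14 called lower, and the synapse list spreads to both sides.

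Of 20 glycolysis genes, 10 rose, 0 fell and 10 did not pass the test, with a median of 0.21, against 23.5% of all genes tested that rose. Ldha, lactate dehydrogenase A, stood at 447, 348 and 420.0 TPM at E14.5, against 316, 337 and 292 TPM at E13.5 (0.36 ± 0.11, adjusted p = 0.00707), and the neuronal enolase Eno2 rose by 0.77. The number that rose was 4 without E13.5 replicate 1 (8.63% of all genes tested), 4 with the GC correction (10.46%) and 2 with only the 6 libraries (2.23%). With the GC correction the median was 0.03, and 9 of the 20 differences were negative. The 13 protein-coding genes of the mitochondrial genome, for subunits of the respiratory chain, moved the other way. Of these, 0 rose, 8 fell and 5 did not pass the test (median -0.66), where 16.9% of all genes tested fell. Among those that fell were mt-Co2 (-1.10 ± 0.18) and mt-Nd1 (-1.02 ± 0.17). The 13 genes summed to 54672, 63862 and 52551 TPM at E14.5, against 104367, 75308 and 80286 TPM at E13.5. The highest sum was in E13.5 replicate 1. Their median GC content was 37.1%, below the upper bound of the lowest of the 5 groups, 45.2%, and with the GC correction 4 were lower and 1 higher. Of 20 cholesterol synthesis genes, 0 rose, 3 fell and 17 did not pass the test. Hmgcs1, the HMG-CoA synthase (-0.84 ± 0.11), and Idi1, the isopentenyl diphosphate isomerase (-0.83 ± 0.14), kept their calls without E13.5 replicate 1 and with the GC correction.

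Markers of other cell types were measured in the same 6 libraries. Among red blood cell genes the embryonic globins Hbb-y, Hba-x (-1.65 ± 0.62) and Hbb-bh1 (-1.20 ± 0.43) fell, and the 4 erythroid markers (those 3 and Alas2) summed to 5.40 to 15.7 TPM at E14.5 and 26.5 to 92.9 TPM at E13.5. The adult globin Hbb-bs stood at 18.9, 27.8 and 63.4 TPM at E14.5, against 15.7, 11.8 and 16.3 TPM at E13.5, and did not pass the test (adjusted p = 0.188); adult globins are near-identical and reads may be shared among them. None of the 3 embryonic globins was called without E13.5 replicate 1, and Hbb-bh1 was at 0 in 2 E14.5 libraries. The 3 endothelial markers (Pecam1, Cdh5, Cldn5) were all called higher, Cldn5 alone also without E13.5 replicate 1, at a summed 4.41 to 9.22 TPM at E14.5 and 0.408 to 1.68 TPM at E13.5. Choroid plexus transthyretin (Ttr) stood at 52.7, 10.47 and 48.7 TPM at E14.5, against 0.228, 2.61 and 11.8 TPM at E13.5. Interneuron markers summed to 4.26 to 6.86 TPM at E14.5 and 2.75 to 5.34 TPM at E13.5, and microglia markers to 2.64 to 2.87 and 2.34 to 2.79 TPM. The part of such cells in the differences above was not tested. Of 15 genes of dissociation stress, 5 rose (33.3%, against 23.5% of all genes tested), 0 fell and 10 did not pass the test. Without E13.5 replicate 1 none was called in either direction. Their median GC content was 57.0%, within the highest of the 5 groups, which began at 56.5%. With the GC correction 1 was higher (10.46% of all genes tested), and with only the 6 libraries 3 were (2.23%).

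The same day was then compared between cell types, with the difference of the 2 steps tested in the same fit (BP step minus NSC step). This test called 4624 of 13770 genes (33.6%), 2541 with a more positive and 2083 with a more negative step in BP, and 947 (6.88%) with an absolute difference of at least 1. Without E13.5 replicate 1 it called 3553, and with only the libraries compared 2273. Of the calls, 55% were more positive in BP, against 46.1% without E13.5 replicate 1 and 48.1% with only the libraries compared. For 14 of the 30 genes named above the steps differed, 9 of them still without E13.5 replicate 1 and 9 with only the libraries compared. The 30 genes were chosen by their step in BP, and the difference of steps contains that step. Their count is therefore not comparable with the 33.6% of all genes tested, and its direction was tilted towards that of the BP step. Mc4r rose in both but by more in BP, with 3.56 ± 0.33 in BP and 1.48 ± 0.31 in NSC (difference 2.08, adjusted p = 0.000421). Grik3 moved in opposite directions, with 2.24 ± 0.46 in BP and -1.09 ± 0.43 in NSC (difference 3.33, adjusted p = 6.8e-05). Nr2f2, Nhlh2 and Aldoc were called in BP and not in NSC, and the difference itself passed the test in each: for Nr2f2 the steps were -1.71 in BP and 0.30 ± 0.32 in NSC (difference -2.01, adjusted p = 0.000838), for Nhlh2 -1.60 and -0.09 ± 0.22 (-1.52, adjusted p = 0.00023), and for Aldoc 1.81 and 0.24 ± 0.27 (1.57, adjusted p = 0.00178). Aldoc nevertheless stood far lower in BP, at 16.8 ± 3.34 TPM at E14.5, than in NSC, at 166 ± 67.9 TPM. For Sla, Ebf2, Crabp2, Abcc8 and Mpped1 the difference between the cell types did not pass the test (0.47, 0.02, -0.36, -0.11 and 0.19).

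**Figure D5:**
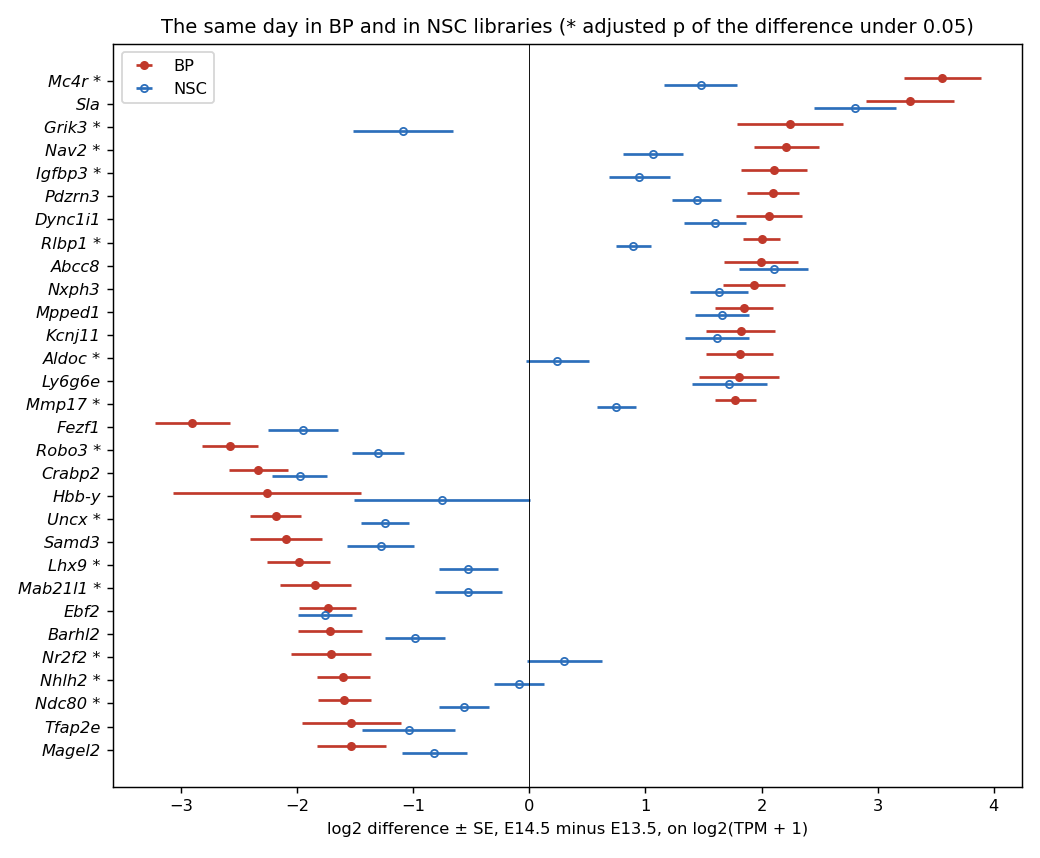
Log2 difference ± SE over the day (E14.5 minus E13.5, on log2(TPM + 1)) in BP libraries and in NSC libraries for the 30 named genes, with an asterisk where the difference between the cell types passed the test. Grik3 lies on opposite sides of 0, and Sla, Abcc8 and Ebf2 lie close together.

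Among the lists, DNA replication genes differed between the cell types in most members. Of all genes tested, 18.45% had a more positive and 15.13% a more negative step in BP. These shares were 11.89% and 13.91% without E13.5 replicate 1 and 15.64% and 13.82% with the GC correction. With only the libraries compared they were 7.9% and 8.6%. The list counts that follow are to be read against these shares. In NSC 21 of 24 DNA replication genes fell over the day (median -0.84), against 6 of 24 in BP, where 19.9% of 13481 genes tested in NSC fell, and the steps differed for 20 of 24 (33.6% of all genes tested), 19 with the more positive step in BP and 1 with the more negative. In the NSC libraries markers of other cells moved over the same day. Of 20 general neuron genes 12 rose (median 0.65), and of 28 genes of synapses and excitability 19 rose (median 0.64). Of 11 endothelial and pericyte genes 10 rose (median 0.91). The median of all genes tested in NSC was 0.01, and the share of them that rose is not given here. Of 18 interneuron and ventral forebrain genes 12 fell, against 19.9% of all genes tested in NSC. The 5 neuron markers summed to 2329 to 3634 TPM in NSC at E14.5 and 2097 to 2526 TPM at E13.5, the 3 endothelial markers to 2.08 to 21.9 TPM and 0.510 to 1.88 TPM, and the 4 interneuron markers to 32.2 to 311 TPM and 215.5 to 542.5 TPM, with no marker at 0 in every library of a day. Their part in the difference of steps was not tested. Mcm7 is an example of the replication genes: it stood at 204 ± 2.56 TPM at E14.5 and 177 ± 19.1 TPM at E13.5 in BP, and at 314 ± 44.9 TPM at E14.5 and 452 ± 29.5 TPM at E13.5 in NSC (difference of steps 0.73, adjusted p = 1.55e-05). Rrm2 fell in both, but by less in BP (difference 0.88, adjusted p = 0.00265). The number with the more positive step in BP was 19 without E13.5 replicate 1, 16 with the GC correction and 15 with only the libraries compared. Genes of neural stem cells and radial glia shifted the same way, with 9 of 20 more positive in BP (18.45% of all genes tested) and 0 more negative. Mitotic genes fell in both cell types, 24 of 25 in BP and 20 of 25 in NSC, and the steps differed for 10 of them, 3 more positive and 7 more negative in BP. With the GC correction 0 were more positive and 4 more negative, and with only the libraries compared 3 and 2. Bub1 (-0.95, adjusted p = 0.0126) and Kif11 (-1.06, adjusted p = 0.00267) were among the 7. Of 12 early heterochronic genes 7 fell in each cell type, and the steps differed for 5 (3 more positive and 2 more negative in BP). For glycolysis the BP step was more positive for 11 of 20 genes and more negative for 1. It was more positive for 5 with the GC correction (15.64% of all genes tested) or with only the libraries compared (7.9%). Ptn and Slc1a3, which rose in BP, also differed between the steps (1.71 and 1.79, adjusted p = 1.92e-08 and 4.33e-06), and so did Neurod1, with a more negative step in BP (-1.73, adjusted p = 1.88e-05).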

How the data were processed

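Bulk RNA sequencing libraries of sorted cells were made with the TruSeq RNA v2 kit and read as single 50-base reads on an Illumina HiSeq instrument, per the labels' protocols. The authors deposited TPM per gene, made with kallisto 0.43.0, with GRCm38.p2 and mm10 as the genome builds, per the submitters' processing notes. Counts were not used here, so depth per library is unknown. The precision stated rests on the number of libraries and on the spread between libraries, taken from all 70. All 70 columns carried a sample title, and 0 were left unmapped. Gene names came with the files' Ensembl identifiers through a table of 22361 of them, and locations from GENCODE M21.

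Values were analysed as log2(TPM + 1) for genes that averaged 1 TPM or more on one side of a comparison. This scale understates the change of low genes. limma 3.58.1 (R 4.3.3) was fitted with 1 mean for each of the 23 combinations of cell type and stage, so all groups shared one estimate of the spread, with a trend on mean level and Benjamini-Hochberg adjustment over all genes tested. Genes with an adjusted p below 0.05 were called. SE is the standard error of the log2 difference from that fit, and SD is over libraries. The fit was tested on simulated data. Named genes were the 15 called genes with the largest difference in each direction among those that averaged 10 TPM or more on the higher side and whose groups did not overlap. Genes described in the lists were picked from those lists after their values were seen. The members, the 34 gene lists described and the tests were chosen with earlier results of these data known. Alternatives were other pseudocounts, filters, scalings and weights, a replicate block, each library left out, and the libraries compared alone. A correction for GC content (a spline with 5 degrees of freedom fitted to each library; 160 genes, 1.21%, had no GC value) was added after seeing the data. Promoter windows are from RefSeq, GRCm38.p6. Some members of the lists are counted but not reported by name here.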

Additional observations from a re-analysis of the deposited data

Results flagged for a closer look

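Between cell types, the step from E13.5 to E14.5 differed by the test of the difference itself (BP step minus NSC step, log2, limma) for 14 of the 30 named genes, and for 9 of these also without E13.5 replicate 1 and for 9 with only the libraries compared. The named genes were chosen by their BP step, which is part of this difference, so its direction was tilted towards that of the BP step. Nav2, Igfbp3, Mab21l1, Ndc80 and Uncx lost the call without E13.5 replicate 1. It was more positive in BP for Grik3 (3.33), Mc4r (2.08), Aldoc (1.57), Igfbp3 (1.16), Nav2 (1.15), Rlbp1 (1.11) and Mmp17 (1.03). It was more negative in BP for Nr2f2 (-2.01), Nhlh2 (-1.52), Lhx9 (-1.46), Mab21l1 (-1.32), Robo3 (-1.28), Ndc80 (-1.03) and Uncx (-0.94).

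Single libraries stood far from the rest of their group for some of the named genes, judged by the gap to the nearest library over the range of the group. Among the 4 NSC libraries of E13.5, 1 library held 87.7 TPM of Hbb-y, 6.38 TPM of Samd3, 5.91 TPM of Mab21l1 and 12.8 TPM of Barhl2. Among the 4 BP libraries of E15.5, 1 stood apart at 13.4 TPM of Aldoc and 1 at 28.9 TPM of Lhx9. Chance alone picks out about 1 in 20 groups, and the groups of 3 could not be judged in this way.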

How the results depend on the processing

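No named gene changed direction under any alternative run, but the balance of higher and lower calls did. The count of genes called between E14.5 and E13.5 in BP (5351 as reported) was 828 with only the libraries compared and 298 with the replicate block on those libraries, 2911 with the GC correction, 580 with it and only the libraries compared, 243 with it and the block, and 1733 with it and without E13.5 replicate 1. Leaving out each library in turn gave 2673 to 5876 calls, the lowest without E13.5 replicate 1, and 3365 without E14.5 replicate 3. The share of calls that were higher (58.1%) was 42.8% without E13.5 replicate 1, 35.6% with only the libraries compared, 31.9% with the block and 47.0% with the GC correction, so that lower calls were then the more frequent. Of the genes tested, 2.27% were called with an absolute log2 difference of at least 1. This share was 1.35% with the block, 4.24% with a pseudocount of 0.1, 0.846% with a pseudocount of 5, 1.39% with array weights, 1.53% with the GC correction, 1.18% with it and only the libraries compared, 1.00% with it and the block, 0.993% with it and without E13.5 replicate 1, and 1.24% to 4.01% with 1 library left out (3.45% without E13.5 replicate 2 and 4.01% without E13.5 replicate 3). The other filters and scalings kept these counts within 1.5 times those reported. The BP step minus the NSC step (4624 genes, 6.88% at least 1) gave 2273 with only the libraries compared, 2.96% at least 1 with a pseudocount of 5, 3.50% with the GC correction, and 3553 to 5111 genes and 5.55% to 8.92% with 1 library left out; with the replicate block limma made 0 calls by either rule, with 3530 genes at an unadjusted p under 0.05. E13.5 against E12.5 (2633) gave 665 with only the libraries compared, 679 with the block and 2002 to 3405 (2.96% to 3.63% at least 1) with 1 library left out, and E15.5 against E14.5 gave 3730 to 4867 (2.56% to 3.05%). Deviations from the group mean in same-numbered libraries of E14.5 and E13.5 correlated at -0.23, 0.03 and 0.29. Those in differently numbered libraries correlated at -0.31 to 0.29. So few values cannot settle whether the numbers pair the samples, and the labels do not say. Over all settings, named genes kept their call in 640 of 660 values for the BP step and in 318 of 350 for the difference of steps, where 5 of 14 lost it without E13.5 replicate 1, 5 with only the libraries compared and all 14 with the block. Depth is not known from TPM, so genes near the minimum of 1 TPM are the least certain.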
